A study of Mus musculus with 26 samples.

Results

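The genes described are 7 members of the complement system, C2, C3, C4b, Cfb, Masp1, Serping1 and Cd55, in clonal mouse fat cell lines. They were chosen by symbol, and each was read from the brightest probe set annotated to it. Of the 7, 6 were measured, out of 18195 genes with a probe set, and all 6 lay above the low-signal filter that 12736 genes passed. C3 was not analysed here. C4b was read from its only probe set, which is annotated to C4a as well, so its values are those of C4a and C4b together and are called C4a/C4b below.

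The clones were 3 immortalized lines from the interscapular depot, named BAT1, BAT6 and BAT8, and 23 immortalized lines from the inguinal depot, all of the 129SVE strain. Per the labels' protocols, all 26 clones, both depots alike, were differentiated to fat cells and then exposed for 4 h to forskolin, which activates adenylyl cyclase and so raises cyclic AMP. The labels disagree on the dose: the series gives 10 micromolar, the individual samples 10 millimolar. No unexposed cells were analysed here, so no value below is a response to forskolin. Each line is 1 clone grown in culture, with no circulating plasma and no neighbouring tissue, and each was measured once on an Affymetrix mouse expression array. The p-values therefore describe the spread among clones, not among repeated cultures. The sources used here do not sort the inguinal clones into beige and white.

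Complement is a cascade of blood and tissue proteins that marks cells and microbes for removal. The classical pathway (C1, C4 and C2) and the lectin pathway (Masp proteases, C4 and C2) build one enzyme that cleaves C3, and the alternative pathway builds another from C3 fragments and factor B. Regulators hold these enzymes back: the C1 inhibitor, encoded by Serping1, in fluid, and Cd55, also named decay-accelerating factor, on the cell surface. Fat cells are a known source of complement proteins; factor D of the alternative pathway is also known as adipsin, a classic fat cell product. Factor D was not analysed here.

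Levels are log2(intensity + 16) of the deposited linear intensities. A difference of 1 unit is about a 2-fold difference in intensity for bright genes and more than 2-fold for dim ones. The median of an array lay between 5.82 and 5.95 on this scale. A level of one gene was not set against that of another, since probe sets differ in brightness. Of 18 measured genes in an adipocyte list, 13 were above the array median on all 26 arrays. The mean of that list was 11.70 in BAT1, 11.22 in BAT6 and 10.52 in BAT8, against 8.04 to 11.69 in inguinal clones. Of 12 macrophage and leukocyte markers, 6 (Cd68, Adgre1, Csf1r, Cd14, Fcer1g and Laptm5) were above the median on all 26 arrays, and 3 (Ptprc, Tyrobp and Cd52) on none. The summed intensity of the 12 was 2259 to 2999 in interscapular clones and 890 to 3673 in inguinal clones. Scan session 1 held 2 interscapular and 17 inguinal arrays, and session 2 held 1 and 3. The mean correlation of an inguinal array with the other inguinal arrays ran from 0.938 (X3) to 0.968 (G23). It was 0.945 for A3 and 0.943 for A5, a pair of clones that an earlier analysis of these arrays had set apart and that were left out as an alternative. N13 (0.9389) and I2 (0.9395), like X3, were lower still and were not left out on that ground.

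Promoter sequence was at hand for 1 of the 6 measured genes, Cd55, and is shown because 4 short motifs of cytokine and cyclic AMP signalling could be looked for in it. It is the 250 bases before the start of Cd55 in RefSeq on GRCm38.p6, chr1:130462745-130462994, minus strand, written 5′ to 3′. Capitals mark the motif matches.
Cd55: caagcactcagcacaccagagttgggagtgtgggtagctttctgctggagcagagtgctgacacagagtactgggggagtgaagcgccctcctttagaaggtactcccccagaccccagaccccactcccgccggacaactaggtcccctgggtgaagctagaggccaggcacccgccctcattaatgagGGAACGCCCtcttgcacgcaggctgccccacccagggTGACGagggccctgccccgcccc
The first capital run is a match on the opposite strand to GGNNNTTCC, the core of the NF-kappaB motif, and 15.7% of 32851 promoters of the same table hold one on either strand. The second is TGACG, the core of the cyclic AMP response element, which 17.8% hold. The interferon response core GAAANNGAA (7.13% of promoters) and the STAT core TTCNNNGAA (7.02%) had no match in this window on either strand. None of the motifs overlapped, and a match in letters is no record of binding.

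Among inguinal clones the 6 genes were some of the most variable measured. The SD over the 23 clones was 1.33 for Serping1, 1.21 for Cfb, 1.05 for C2, 0.88 for Cd55, 0.79 for C4a/C4b and 0.64 for Masp1, against a median SD of 0.324 over all genes kept. Serping1 exceeded 99.4% of genes in SD, Cfb 99.1%, C2 98.5%, Cd55 97.0%, C4a/C4b 95.5% and Masp1 91.4%. The SD of the other complement genes above the filter ran from 0.22 (Fcnb) to 1.03 (Clu). The members were chosen with earlier results of these data known, and how far that bears on their rank was not tested. Between its lowest and its highest inguinal clone, Serping1 ran from 84.35 to 6605 intensity units, a 78.3-fold range, and Cfb from 96.5 to 3054 units, a 31.6-fold range. The low end of Serping1 was set by G18 alone, and the next lowest clone, F9, had 302 units.

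**Figure D1:**
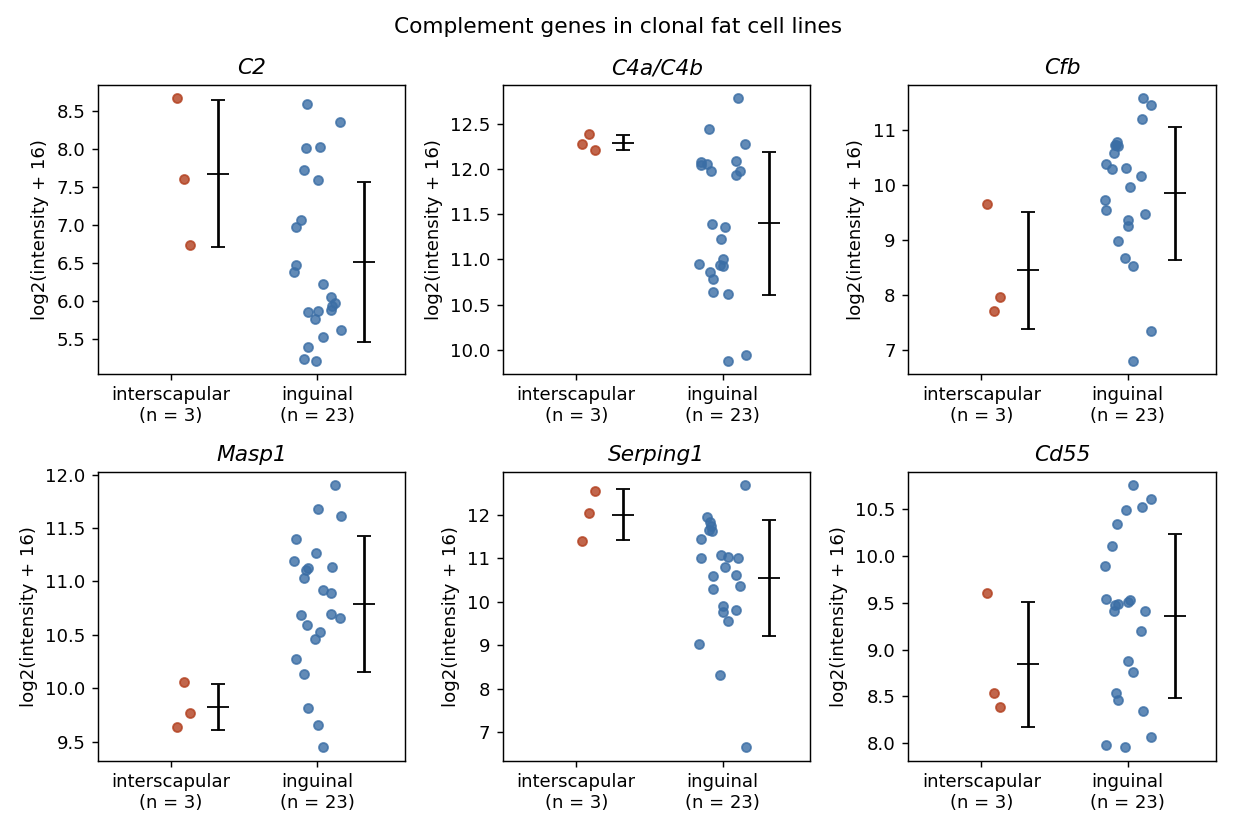
Level of each of the 6 complement genes, as log2(intensity + 16), in 3 interscapular clones (left, red) and 23 inguinal clones (right, blue); each point is 1 clone, and bars give the mean and SD. Masp1 was above every interscapular clone in 20 of 23 inguinal clones, C4a/C4b was below every interscapular clone in 20 of 23, and the groups overlapped for all 6 genes.

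Between depots, no gene of the 6 passed the test (limma, interscapular minus inguinal, Benjamini-Hochberg over 12736 genes, adjusted p under 0.05). The share of all genes called was 10.2%. At an unadjusted p under 0.05 there were 3 of the 6, C4a/C4b, Cfb and Masp1, against 25.7% of all genes. With 3 interscapular clones the intervals were wide.

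C2 is the serine protease that, once bound to C4 and cut, forms the C3-cleaving enzyme of the classical and lectin pathways. Its level was 8.67 in BAT1, 6.74 in BAT6 and 7.60 in BAT8. Over inguinal clones it was 5.21 at the lowest (E1), 6.04 at the median and 8.59 at the highest (E4). BAT1 was above all inguinal clones, 15 inguinal clones were below all interscapular ones, and the groups overlapped. All 3 interscapular clones were above the array median, against 14 of 23 inguinal clones, and J6 (8.35), G12 (8.03) and F4 (8.01) stood near E4 at the top of the inguinal range. The means were 7.67 ± 0.97 in interscapular clones (SD, n = 3) and 6.51 ± 1.05 in inguinal clones (SD, n = 23). The difference was 1.16 (SE 0.60, 95% interval -0.06 to 2.39, adjusted p = 0.219), and 2 further probe sets of C2 gave 1.30 and 1.14. Within scan session 2, where BAT6 was set against D16, G12 and J6, the last 2 of them high in C2, the difference had the other sign, -0.68 (adjusted p = 0.751). It was 0.66 without BAT1 and 0.35 with chip lot as a block.

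C4 is the protein that binds covalently to a target surface and recruits C2. C4a/C4b was 12.28 in BAT1, 12.21 in BAT6 and 12.38 in BAT8, close to each other. Inguinal clones ran from 9.88 (I2) through a median of 11.36 to 12.78 (D12). All 3 interscapular clones stood in the upper part of the inguinal range, with 2 inguinal clones above them and 20 below. The means were 12.29 ± 0.09 in interscapular clones (SD, n = 3) and 11.40 ± 0.79 in inguinal clones (SD, n = 23), a difference of 0.89 (SE 0.43, interval 0.01 to 1.78, adjusted p = 0.191). It was 0.43 with chip lot as a block and 0.35 within scan session 2. C4a is a near copy of C4b that RefSeq lists beside it on chromosome 17, with Cyp21a1 between them, and this probe set does not separate their RNAs.

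Cfb, factor B, is the alternative pathway's counterpart of C2 and its neighbouring gene on chromosome 17. It was 9.67 in BAT1, 7.98 in BAT6 and 7.72 in BAT8, against 6.81 (I2), 10.16 and 11.58 (D12) at the lowest, median and highest inguinal clone. BAT6 and BAT8 were near the bottom of the inguinal range, with 2 inguinal clones below them, while BAT1 lay among the inguinal clones, 14 of which were above it. The means were 8.46 ± 1.06 in interscapular clones (SD, n = 3) and 9.86 ± 1.21 in inguinal clones (SD, n = 23), a difference of -1.40 (SE 0.68, interval -2.79 to -0.01, adjusted p = 0.192). It was -0.98 within scan session 1 and -2.90 within session 2.

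Masp1, the gene of a lectin pathway protease, was 9.64 in BAT1, 9.76 in BAT6 and 10.06 in BAT8. Inguinal clones ran from 9.45 (N13) through 10.89 to 11.90 (B5). The interscapular clones were low: 20 of 23 inguinal clones were above all 3 and 1 was below all 3. The means were 9.82 ± 0.22 in interscapular clones (SD, n = 3) and 10.79 ± 0.64 in inguinal clones (SD, n = 23), a difference of -0.97 (SE 0.35, interval -1.69 to -0.24, adjusted p = 0.0791). In limma Masp1 passed in 3 of 26 alternatives. These were scan session as a block (-1.04, adjusted p = 0.0322), array weights (adjusted p = 0.0421) and leaving out clones A3 and A5 (adjusted p = 0.0438). Both of these clones were themselves low in Masp1, at 10.13 and 9.81. Masp1 did not pass with chip lot (-0.85, adjusted p = 0.136) or fluidics station (-0.78, adjusted p = 0.354) as a block. Nor did it pass without BAT1 (adjusted p = 0.234), BAT6 (0.246) or BAT8 (0.133). Its 2 other probe sets above the filter gave -0.88 and -0.70, and the mean over all its probe sets, dim ones included, gave -0.55. Masp1 was also the member that moved most with the 3′ over 5′ ratio of actin probes, a sign of RNA quality, with r = -0.51 over 23 inguinal clones. That log2 ratio was 0.66 in BAT1, 1.15 in BAT6 and 0.43 in BAT8, against 0.24 to 0.99 in inguinal clones, and its part in the difference was not tested.

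Serping1, the C1 inhibitor, blocks the proteases of C1 and the Masp proteases. Its level was 11.40 in BAT1, 12.56 in BAT6 and 12.05 in BAT8. Inguinal clones ran from 6.65 (G18) through 10.80 to 12.69 (J6). G18 stood apart from the next lowest clone, F9, at 8.31. The interscapular clones were in the upper part of the range, with 1 inguinal clone above all of them and 16 below all of them. The means were 12.01 ± 0.58 in interscapular clones (SD, n = 3) and 10.55 ± 1.33 in inguinal clones (SD, n = 23), a difference of 1.45 (SE 0.73, interval -0.05 to 2.95, adjusted p = 0.210). It was 0.83 with chip lot as a block.

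Cd55, which speeds the decay of both C3-cleaving enzymes on the cell's own surface, was 9.61 in BAT1, 8.38 in BAT6 and 8.54 in BAT8. Inguinal clones ran from 7.95 (F9) through 9.47 to 10.76 (N13). The groups overlapped broadly, with 7 inguinal clones above and 4 below all interscapular ones. The means were 8.84 ± 0.67 in interscapular clones (SD, n = 3) and 9.36 ± 0.88 in inguinal clones (SD, n = 23), a difference of -0.52 (SE 0.49, interval -1.53 to 0.49, adjusted p = 0.546). It was -0.90 without BAT1, -0.29 without BAT6 and -0.93 with chip lot as a block, and it was -0.13 within scan session 1 and -1.84 within session 2. The 2 other probe sets of Cd55 above the filter gave -0.25 and -0.61.

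**Figure D2:**
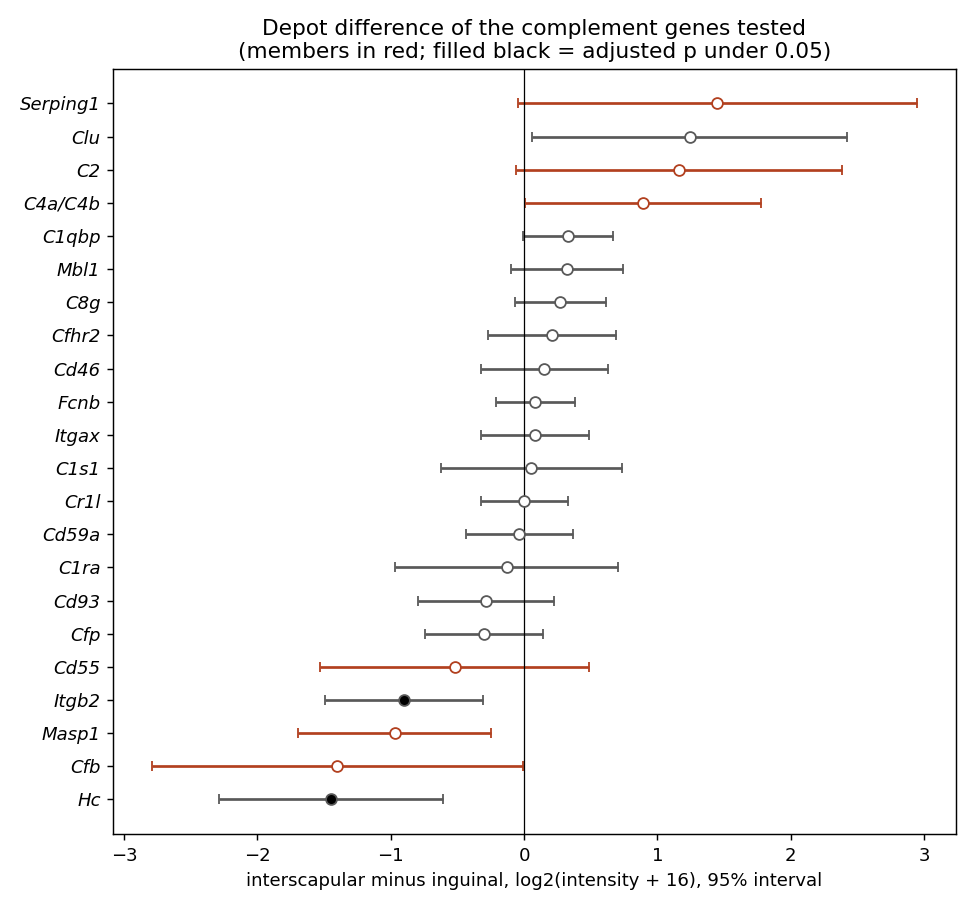
Interscapular minus inguinal difference in log2(intensity + 16), with its 95% interval, for the 22 complement genes above the low-signal filter; the 6 genes described are in red, and a black fill marks an adjusted p under 0.05. Hc and Itgb2 are the 2 filled points, both lower in interscapular clones, and Serping1 and Cfb lie near opposite ends.

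The other complement genes give the setting. Of 60 genes in a list of the pathways, regulators and receptors, 47 had a probe set and 22 passed the filter. Of the 22, 0 were called higher and 2 lower in interscapular clones (limma), against 10.2% of all genes called in either direction. At an unadjusted p under 0.05, 2 were higher and 4 lower, against 25.7% of all genes in either direction. Both shares of the list were near those of all genes. Their median difference was 0.07, against -0.02 over all genes kept. The 2 called lower, Hc and Itgb2, were dim and passed the low-signal filter only through inguinal clones (9 and 16 of 23 above the array median), the depot where they were higher, so the filter bears on their direction and their values are given as a description. Hc, the gene of C5, was 4.49 in BAT1, 4.35 in BAT6 and 4.11 in BAT8, against 4.43 to 6.84 in inguinal clones (difference -1.45, adjusted p = 0.0217). Itgb2, the integrin chain shared by complement receptors 3 and 4, was 4.96 in BAT1, 5.29 in BAT6 and 5.15 in BAT8, against 5.08 to 6.83 in inguinal clones (difference -0.90, adjusted p = 0.0439). For both, 0 of 3 interscapular clones were above the array median, and both calls were lost without any 1 of the interscapular clones (adjusted p = 0.0614 to 0.110 for Hc and 0.125 to 0.169 for Itgb2).

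The clones held the C1 proteases without signal above the array median for C1q. C1ra, the gene of C1r, averaged 10.32 ± 0.27 in interscapular clones (SD, n = 3) and 10.45 ± 0.74 in inguinal clones (SD, n = 23), with a difference of -0.13 (adjusted p = 0.878). C1s1, the gene of C1s, averaged 12.21 ± 0.21 in interscapular clones and 12.16 ± 0.59 in inguinal clones, a difference of 0.06 (adjusted p = 0.941). Both were above the array median in all 26 clones. C1qa, C1qb and C1qc, the recognition subunits, made in tissue mainly by macrophages, were above it in 0 of 3 interscapular and 0 of 23 inguinal clones, as were C6, C8a, C8b and C9 of the membrane attack complex. C8g, of the same complex, was above it in all 26 clones, at 7.11 in BAT1, 7.28 in BAT6 and 6.61 in BAT8, against 6.36 to 7.34 in inguinal clones (difference 0.27, adjusted p = 0.310). Of the genes of surface regulators, Cd59a (-0.034, adjusted p = 0.938) and Cr1l (0.0026, adjusted p = 0.995) had the narrowest intervals around 0. Clu, clusterin, which binds the terminal complex in fluid, averaged 8.60 ± 0.79 in interscapular clones and 7.36 ± 1.03 in inguinal clones, a difference of 1.24 (adjusted p = 0.171).

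Next, the members were followed from clone to clone within the inguinal depot. For each member in turn, every gene was regressed on it over the 23 inguinal clones (limma, adjusted over 12735 genes). Of 15 pairs, 2 passed in both directions, C4a/C4b with Cfb and Cfb with Serping1, and both were positive. The share of all genes called was 6.24% on C4a/C4b, 4.15% on Cfb, 0.291% on Serping1, 0.0864% on Masp1, 0.0314% on Cd55 and 0% on C2; on C2, 5.59% had an unadjusted p under 0.05.

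Cfb rose by 1.19 per unit of C4a/C4b (SE 0.20, adjusted p = 0.00191), with r = 0.77 and rho = 0.65 over 23 clones. The clones I2 and G18 were lowest in both genes and D12 was highest in both. Without the 2 clones farthest from the median of C4a/C4b, r was 0.62 and the slope 0.81 no longer passed (adjusted p = 0.0857). Within scan session 1 r was 0.79 (n = 17), within scanner 1 it was 0.68 (n = 12) and within scanner 2 it was 0.83 (n = 11). The slope of Cfb on C4a/C4b did not pass within scanner 1 (adjusted p = 0.294).

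Serping1 rose by 0.79 per unit of Cfb (SE 0.15, adjusted p = 0.00762), with r = 0.72 and rho = 0.68 over 23 clones. J6, with the highest Serping1, had the second highest Cfb at 11.46, and G18, with the lowest Serping1, had the second lowest Cfb at 7.36. Without the 2 clones farthest from the median of Cfb, r was 0.62 and the slope 0.75 did not pass (adjusted p = 0.104). Within scan session 1 r was 0.73, within scanner 1 it was 0.58 and within scanner 2 it was 0.78. The slope of Serping1 on Cfb did not pass within scanner 1 (adjusted p = 0.465) or within scanner 2 (adjusted p = 0.0555). In the reverse direction, Cfb on Serping1, the slope did not pass in 6 of 11 alternatives. These included scan session as a block (adjusted p = 0.109) and leaving out clones A3 and A5 (adjusted p = 0.0519). The others were within scan session 1 (0.133), within scanner 1 (0.704), within scanner 2 (0.2695) and without the 2 clones farthest from the median of Serping1 (0.287).

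C4a/C4b and Serping1 passed in 1 direction only, as the slope of Serping1 on C4a/C4b (1.03, adjusted p = 0.0237, against 0.109 for the reverse), with r = 0.61. That call was lost within scanner 1 (adjusted p = 0.526), within scanner 2 (0.123), without the 2 farthest clones (slope 0.70, adjusted p = 0.242) and with the adipocyte list mean as a covariate (0.154). Both directions rest on the same r, with unadjusted p = 0.000706 and 0.000858 in limma. Their adjusted values differ with the share of all genes called, 6.24% on C4a/C4b and 0.291% on Serping1. Passing in 1 direction only is therefore no asymmetry of the pair. The other 12 pairs passed in neither direction. C2 and Cfb, although neighbours on chromosome 17, had r = 0.32, lower than the 0.72 between Cfb and Serping1, which lies on chromosome 2. The difference between these correlations was not tested. C2 was above the array median in only 14 of 23 inguinal clones, against all 23 for Cfb and Serping1, which limits the r it can show. Masp1, on chromosome 16, had r between -0.25 and 0.17 with the other 5, and Cd55, on chromosome 1, between -0.05 and 0.47, the highest with Serping1. The values for Cd55 were unlike on the 2 scanners. Within scanner 1 (n = 12) its r was 0.16 with Serping1, -0.28 with Cfb and -0.44 with C4a/C4b. Within scanner 2 (n = 11) these were 0.82, 0.84 and 0.75. Without the 2 clones farthest from the median of Serping1, its r with Serping1 was 0.21.

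**Figure D3:**
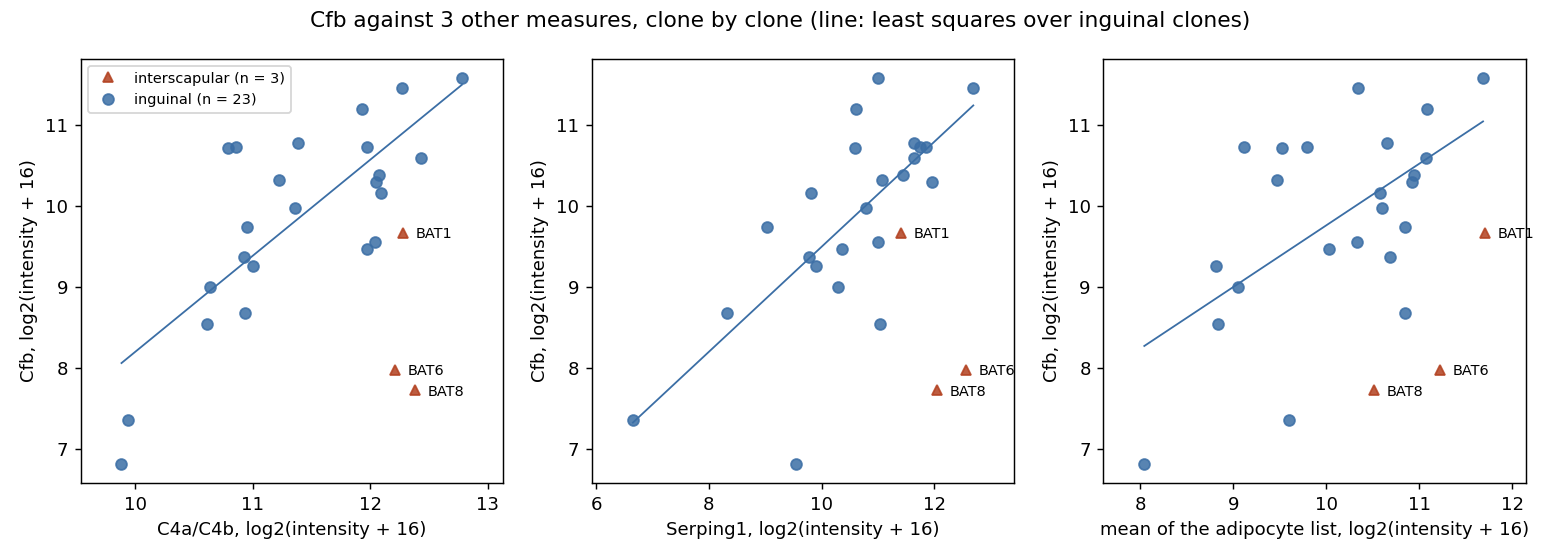
Cfb level on the vertical axis against C4a/C4b, Serping1 and the mean of an adipocyte gene list, all as log2(intensity + 16); red triangles are the 3 interscapular clones, blue circles the 23 inguinal clones, and the line is the least-squares fit over inguinal clones. All 3 interscapular clones lie below the line in each panel, BAT6 and BAT8 farthest.

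The interscapular clones were then set against the inguinal relations of Cfb with Serping1 and with C4a/C4b. With Serping1 as a covariate, Cfb was lower in interscapular clones by a difference of -2.29 (SE 0.56, adjusted p = 0.0120), where 7.34% of all genes were called and Cfb was the only call among the 5 members tested. With Cfb as a covariate, Serping1 was higher by 2.44 (SE 0.60, adjusted p = 0.00595) and C4a/C4b by 1.55 (SE 0.32, adjusted p = 0.00144), where 16.9% of all genes were called. C4a/C4b kept its call without any 1 interscapular clone (1.35 to 1.91, adjusted p up to 0.0181). Cfb lost its call without BAT6 (-1.90, adjusted p = 0.109) and without BAT8 (-1.91, adjusted p = 0.102), and Serping1 lost it without BAT6 (2.02, adjusted p = 0.0700). These fits were added after the values had been seen, so their p-values belong to contrasts picked from the same data. They assume that the slope is the same in both depots. Chip lot and fluidics station were not tried as blocks in them, and Cfb was not fitted with C4a/C4b as a covariate.

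The degree of differentiation was followed through the adipocyte list mean, which leaves out factor D. C4a/C4b rose with it among inguinal clones by 0.57 per unit (SE 0.13, adjusted p = 0.00402, r = 0.67, rho = 0.63), as did Cfb by 0.76 (SE 0.21, adjusted p = 0.0197, r = 0.58, rho = 0.49). The other 4 members did not pass, and 11% of all genes were called. Serping1 had a slope of 0.21 (adjusted p = 0.702), Masp1 of -0.05, Cd55 of -0.03 and C2 of 0.36 (adjusted p = 0.324). In RNA from a whole culture, fewer fat cells and less of the RNA per fat cell cannot be told apart.

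The slope of C4a/C4b kept its call in 9 of 10 alternative settings and that of Cfb in 6 of 10. Without the 2 clones farthest from the median of the list, r was 0.58 for C4a/C4b (adjusted p = 0.0458) and 0.41 for Cfb (adjusted p = 0.245). Within scanner 1 neither passed (adjusted p = 0.277 for C4a/C4b and 0.460 for Cfb; n = 12), and within scanner 2 both did (0.0218 and 0.0254; n = 11). With scan session as a block C4a/C4b passed (adjusted p = 0.0160) and Cfb did not (adjusted p = 0.0701).

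With the list mean as a covariate, the pair of Cfb and Serping1 still passed in both directions (1.05 for Serping1 on Cfb, adjusted p = 0.00603), while that of C4a/C4b and Cfb did not (1.06 for Cfb on C4a/C4b, adjusted p = 0.237). In the depot comparison with the same covariate Cfb was lower in interscapular clones by a difference of -2.21 (adjusted p = 0.0235), a call lost without BAT6 (adjusted p = 0.159) and without BAT8 (adjusted p = 0.149). The difference of C4a/C4b was 0.34 in that fit (adjusted p = 0.668).

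Complement genes are known targets of interferons and of inflammatory cytokines in many cell types, so both lists were followed too. The interferon list mean was 10.00 in BAT1, 7.37 in BAT6 and 8.80 in BAT8, against 9.10 to 10.76 in inguinal clones, so BAT6 and BAT8 were below all inguinal clones. Among inguinal clones 0 of 6 members passed on this list in limma, where 0.275% of all genes were called; 1 member, Cd55, had an unadjusted p under 0.05 (slope 1.06, adjusted p = 0.298, r = 0.45). With this list as a covariate in the depot comparison (limma), the difference of Cfb was -0.85 (adjusted p = 0.638) and that of Cd55 changed sign to 0.27 (adjusted p = 0.849). In the same fit it was 1.34 for C2, 0.79 for C4a/C4b, -1.15 for Masp1 and 1.625 for Serping1. Since BAT6 and BAT8 were below all inguinal clones on this list, the fit reaches beyond the inguinal values. The part of the list in these differences was not tested.

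The cytokine and acute phase list mean was 11.71 in BAT1 and 10.95 in both BAT6 and BAT8, against 10.63 to 11.71 in inguinal clones. Again 0 of 6 members passed in limma, where 0.267% of all genes were called, and 3 had an unadjusted p under 0.05: C4a/C4b (slope 1.54, adjusted p = 0.150, r = 0.55), Cfb (2.12, adjusted p = 0.206, r = 0.49) and C2 (1.85, adjusted p = 0.207, r = 0.49). With the adipocyte list mean as a covariate in limma, the slope was 0.73 for C4a/C4b (adjusted p = 0.679). It was 1.065 for Cfb (adjusted p = 0.722) and 1.70 for C2 (adjusted p = 0.520). On Ucp1, the gene of the brown fat uncoupling protein, 0 of 6 passed in limma, where 1.48% of all genes were called, and C2 alone had an unadjusted p under 0.05 (slope 0.49, adjusted p = 0.428, r = 0.38).

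The genes most like each member over the 23 inguinal clones were taken as the 3 with the highest Pearson r among all genes kept, other members left out. They are a description, with no test, since they were picked for this likeness and each pair of values comes from the same array. C4a/C4b was closest to Il17ra (r = 0.87), a receptor chain for interleukin 17, Lbp (0.87), the lipopolysaccharide-binding protein, and Tnxb (0.84), which adjoins C4b on chromosome 17. Cfb was closest to Rtn4rl2 (0.85), Slc16a1 (0.83), a lactate carrier, and Hsd11b1 (0.82), which regenerates active glucocorticoid. Serping1 was closest to Fxyd4 (0.82), Srp9 (0.78) and Il1r2 (0.78), the decoy receptor for interleukin 1.

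Masp1 was closest to Plpp3 (0.80), Fam168b (0.77) and Zmpste24 (0.77), and Cd55 to Htra4 (0.81), Antxr1 (0.76) and Hs3st1 (0.76). C2 had the loosest partners, Eif3m (0.65), Zg16 (0.64) and Pltp (0.64). For Cfb, all 3 partners had higher means in interscapular clones, the depot in which Cfb had the lower mean. Hsd11b1 averaged 12.15 in interscapular clones and 9.81 in inguinal clones (adjusted p = 0.00334), and Slc16a1 12.58 and 11.57 (adjusted p = 0.0371). Rtn4rl2 averaged 10.68 and 9.45 (adjusted p = 0.0930). Lbp, the partner of C4a/C4b, averaged 11.96 in interscapular clones and 8.94 in inguinal clones (adjusted p = 0.00100), a wider gap than that of C4a/C4b itself. The other 2 partners of C4a/C4b were not called: Il17ra averaged 8.53 in interscapular clones and 8.03 in inguinal clones (adjusted p = 0.178), and Tnxb 7.85 and 7.66 (adjusted p = 0.799).

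**Figure D4:**
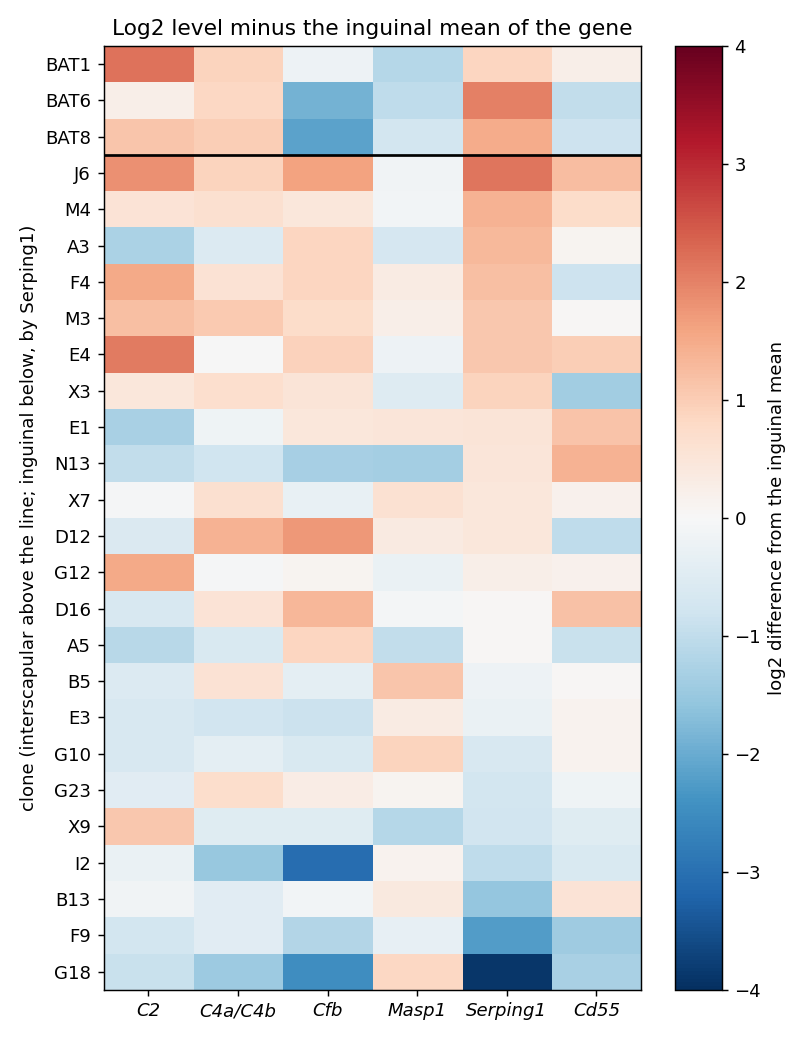
Level of each of the 6 complement genes (columns) in each clone (rows) minus the gene's mean over the 23 inguinal clones, in log2 units; the 3 interscapular clones are above the line, and the inguinal clones below it run from high to low Serping1. The lowest rows, F9 and G18, are low in Serping1 and Cfb, while Masp1 shows no such order.

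Clone by clone, the same line was seldom high or low in everything. G18 was lowest in Serping1 and second lowest in Cfb and C4a/C4b, yet its Masp1 was above the inguinal mean. I2 was lowest in Cfb and C4a/C4b, with Serping1 at 9.55. D12 was highest in Cfb and C4a/C4b, while its C2 was 5.93, below the inguinal median. N13 was highest in Cd55 and lowest in Masp1. J6 was highest in Serping1, second highest in Cfb, C2 and Cd55 and high in C4a/C4b (12.27), with Masp1 (10.66) below the inguinal mean. F9 was an exception, below the inguinal mean in every member. Among the interscapular clones BAT1 had the highest C2, Cfb and Cd55 and the lowest Serping1 and Masp1.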

How the data were processed

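Linear intensities per probe set, 1 column per array, were used as deposited by the authors; their summarisation and scaling are not given in the sources used here. Of 45101 probe sets, 34958 carried 1 symbol in the platform annotation, which can be old, and 34754 of these matched RefSeq (GRCm38.p6, used for names and gene order). Probe sets with several symbols were left out, save the one shared by C4a and C4b. Values were taken as log2(intensity + 16), with the brightest probe set per gene. A gene was kept when above the array median on at least 3 of 26 arrays.

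Depots and slopes were tested with limma 3.58.1 (R 4.3.3; lmFit, eBayes, two-sided, adjusted over all genes, threshold 0.05). Replicates are clones as labelled. A pair of members counted as passing when both slopes did. Scan session (scan dates at most 5 days apart), scanner, chip lot and fluidics station came from the deposited experiment files. Array precision is limited by the 3 interscapular clones.

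The members, the gene lists and the tests were chosen with earlier results of these data known. Named genes are the members, complement genes that passed, and for each member the 3 genes with the highest r. C1ra, C1s1, C1q, C6, C8a, C8b, C8g, C9, Cd59a, Cr1l and Clu were named after their values were seen, as examples of their pathway steps. On simulated data over 12736 genes, 70% of differences of 1 and 94% of 2 were recovered between depots. On the adipocyte list, 82% of slopes of 0.5 and 98% of 1 were recovered. The effects were put on genes drawn at random, each with its own SD, and the median SD of all genes was 0.324. The members had SDs of 0.64 to 1.33, so these shares do not hold for them, and their recovery was not measured. The alternatives covered centring, quantile scaling, pseudocount, filter, probe set rule, batches, array weights, covariates and left-out clones. Figures were drawn with matplotlib 3.10.9.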

Additional observations from a re-analysis of the deposited data

How the results depend on the processing

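Between depots, 0 of 6 members passed, and this count was 0 in 18 of 24 alternatives in limma, those without 1 interscapular clone included. It was 1 with array weights, without A3 and A5 and with scan session blocked (Masp1 in each), 1 with the adipocyte list mean or with Serping1 as a covariate (Cfb in both), and 2 with Cfb as a covariate (C4a/C4b and Serping1); the last 2 covariates were chosen after seeing the data. The difference of C2 turned to -0.68 within scan session 2, and that of Cd55 to 0.27 with the interferon list mean as a covariate, neither of them called before or after. The cause was not tested. The 2 members called on the adipocyte list became 1 with scan session as a block, within scan session 1 and without the 2 farthest clones, and 0 within scanner 1, where 12 clones were left. The 2 pairs of members became 1 with scan session as a block, within scan session 1, within scanner 2, without A3 and A5 and with the adipocyte list mean as a covariate, and 0 within scanner 1 and without the 2 farthest clones. On the interferon list, the cytokine list and Ucp1, 0 members passed in every alternative run. No paired analysis was possible because the labels pair no clones across depots. Median centring and quantile scaling moved the median of all genes by -0.010 and 0.012. Precision is limited by 3 interscapular clones, by 1 array per clone, and for C2, Hc and Itgb2 by signals near the array median.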
